A study of Mus musculus with 12 samples.

Results

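The genes described here encode the enzymes that cut the extracellular matrix and their inhibitors: matrix metalloproteinases (MMPs), ADAMTS proteases, the ADAMTS-like proteins and the tissue inhibitors of metalloproteinases (TIMPs). They were taken by name, as every gene on the array whose symbol begins with Mmp or Timp and a number, or with Adamts. That gave 47 of the 27668 genes on the array, namely 21 MMPs, 17 ADAMTS proteases, 5 ADAMTS-like proteins and 4 TIMPs, and the rule used no measured value. Where a gene had several probes, the brightest stands for it. The hearts came from male C57BL/6 mice in 4 groups of 3, and each heart was hybridised to 1 single-colour Agilent expression array. In cardioGRKO mice a floxed allele of the glucocorticoid receptor (GR) was recombined by Cre under the αMHC promoter, which is active in cardiomyocytes, and these mice were studied at 1 month and at 2 months of age. The controls, called GRflox, were littermates of the same 2 ages that carried the floxed allele and no Cre. No control carried Cre alone, so effects of Cre and of the loss of GR cannot be told apart. The RNA was that of the whole heart, in which fewer cells of a type and less RNA per cell cannot be told apart.

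MMPs are secreted or membrane-bound zinc proteases, made as inactive precursors, that cut collagens, gelatin, laminins and other matrix proteins. ADAMTS proteases are secreted and bind the matrix, where some cut the proteoglycans versican and aggrecan, some remove the amino-terminal propeptide of collagens, and others act on fibrillin microfibrils or on single proteins. TIMPs bind the active site of these enzymes and block it. In the heart they act in growth, in inflammation and in the remodelling of the matrix after injury, and glucocorticoids are known in other cells to lower the transcription of several MMP genes.

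All levels below are log2 signals relative to the 75th percentile of the same array, so a level of 0 is the signal that 75% of the probes do not exceed. Levels of different genes come from different probes and are not set against each other. A difference is a log2 fold change from a limma fit to all 12 arrays and all genes, with its standard error (SE), and a gene is said to rise or fall where its Benjamini-Hochberg adjusted p over all genes was under 0.05. The signal at the 75th percentile ran from 885.8 to 1549.1 units, and 66.9% to 81.9% of an array's probes were well above background. The 3 arrays with the highest such shares were GRflox 2 months replicate 2 (81.9%), cardioGRKO 2 months replicate 3 (79.1%) and cardioGRKO 1 month replicate 1 (78.9%). The arrays lay on 4 slides, and slide 1 held the 3 GRflox arrays of 1 month and no other. For any comparison with those hearts, slide and group cannot be told apart. Slide 4 held only cardioGRKO 1 month replicate 1 and cardioGRKO 2 months replicate 3. These were also the only arrays scanned on the second day, which thus held no GRflox array. All 10 cardiomyocyte markers were measured, and their summed level on the linear scale, in multiples of the array's 75th percentile, was 2373 to 3905. Nr3c1, which encodes GR, was measured at 2.56, 2.11 and 2.11 in GRflox and at 1.22, 1.25 and 1.31 in cardioGRKO hearts of 1 month. At 2 months it was 2.15, 2.04 and 1.99 in GRflox and 0.96, 0.95 and 0.86 in cardioGRKO hearts. Every cardioGRKO heart was thus below every GRflox heart; the limma difference was -0.998 (adjusted p = 0.0513) at 1 month and -1.14 (adjusted p = 0.012) at 2 months.

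Of the 47 genes, 31 were well above background on all 12 arrays (11 MMPs, 12 ADAMTS proteases, 4 ADAMTS-like proteins and all 4 TIMPs). Another 12 were so on 3 to 11 arrays. Of these, Adamts15 and Mmp13 lacked only 1 array each, where their spot was left out as non-uniform. The 31 and the 12 together, 43 genes, were tested. The other 4 were not tested: Adamts13, whose enzyme cuts von Willebrand factor, and the leukocyte MMP gene Mmp25 were well above background on 1 array each, and Mmp12 (macrophage elastase) and Mmp20 (the tooth enamel MMP) on none. Among the 16 genes that were not well above background on every array, the highest of the 12 levels fell on cardioGRKO 2 months replicate 3 for 7 genes and on GRflox 2 months replicate 2 for 5. Those are 2 of the 3 arrays with the highest shares of probes above background. Of the 18 MMPs tested, 7 were among the 12 genes on 3 to 11 arrays. Without the 3 arrays with the highest shares, the 18 went from 12 above 0 between genotypes at 1 month (median 0.11) to 8 (median -0.01). At 2 months the count stayed at 14 above 0.

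**Figure D1:**
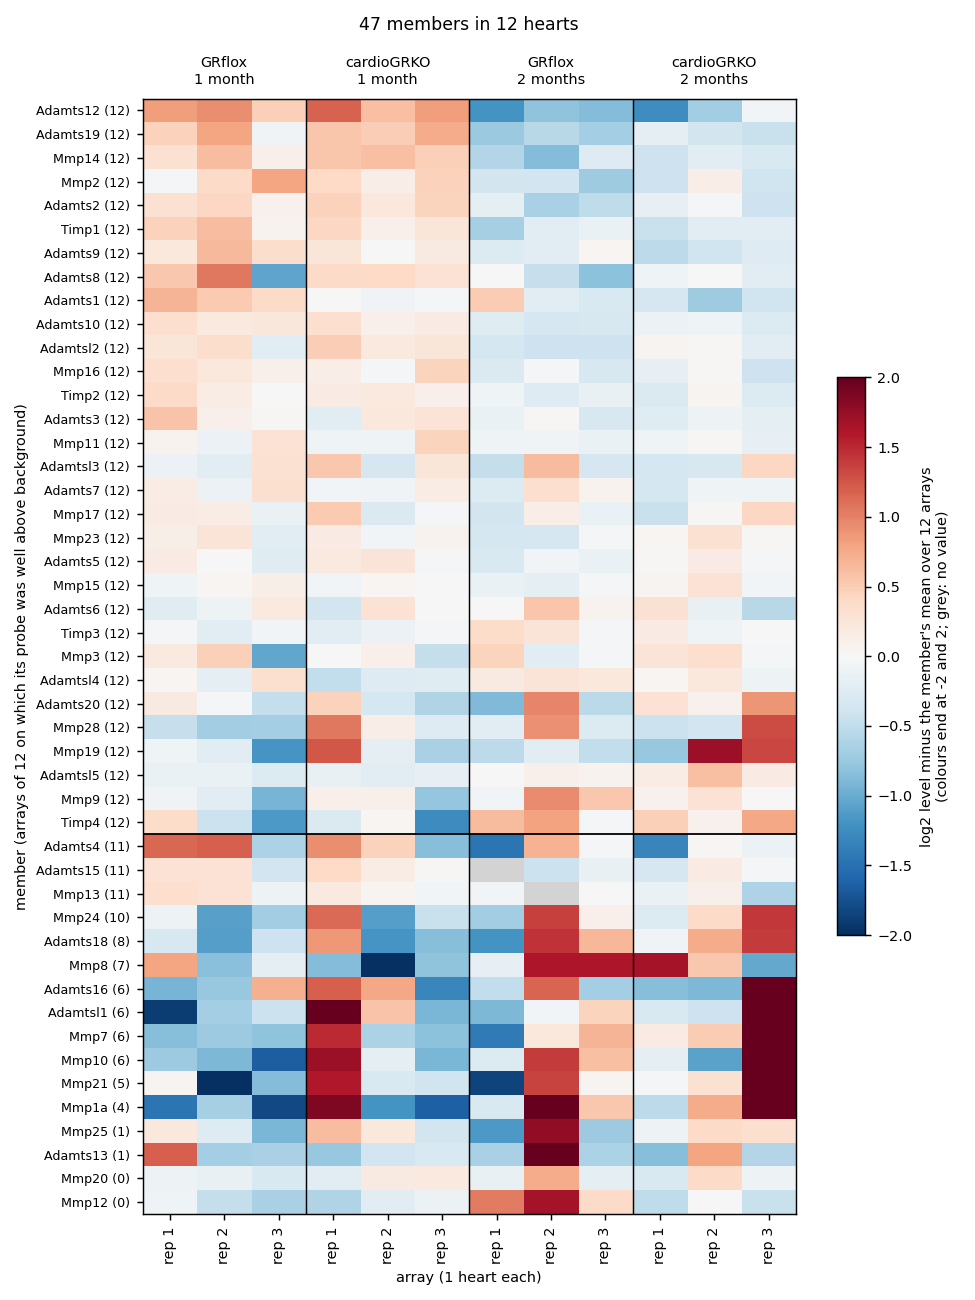
The level of each of the 47 genes (rows) in each heart (columns, 4 groups of 3) minus that gene's mean over the 12 arrays, on the log2 scale. The black line separates the 31 genes well above background on all 12 arrays from the other 16. The number after a name is the count of arrays on which its probe was well above background. Grey marks the 2 spots left out as non-uniform, those of Adamts15 and Mmp13. The strongest colours lie among the dim genes on the arrays with high shares above background. Of the 31 upper rows, 22 are lower on average at 2 months than at 1 month in GRflox and 21 in cardioGRKO hearts. Of all genes well above background on all 12 arrays, 41.6% and 41.1% were lower.

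The genes not well above background on all 12 arrays included most of the inducible MMPs of chromosome 9. There Mmp1a (a rodent interstitial collagenase), Mmp3 and Mmp10 (stromelysins), Mmp7 (matrilysin), Mmp8 (neutrophil collagenase), Mmp12, Mmp13 (collagenase 3) and Mmp20 lie within 1 cluster. Of these 8, only Mmp3 was well above background on all 12 arrays. Mmp13 was so on the 11 with a usable spot, Mmp8 on 7, Mmp7 and Mmp10 on 6 each, and Mmp1a on 4. Promoters from the RefSeq table (GRCm38.p6) were found for 32 of the 47 genes, with 35 promoters among them. In the 250 bases before the start, the AP-1 motif TGANTCA, searched on both strands, was in 7 of these 35 promoters (20%) and in 6.75% of all 32851 promoters in the table. The 7 were those of Mmp1a, Mmp3, Mmp7, Mmp10, Mmp12, Mmp13 and Mmp20, all of that cluster. AP-1 is the Fos and Jun dimer that drives several of these genes in stimulated cells. The Mmp20 match, TGAATCA, has A as its middle base, where the others have G or C. The upstream region of Mmp13 is shown as an example, at chr9:7272264-7272513 on the plus strand, 5′ to 3′, with its AP-1 match and the TATA box TATAAA in capitals.
Mmp13: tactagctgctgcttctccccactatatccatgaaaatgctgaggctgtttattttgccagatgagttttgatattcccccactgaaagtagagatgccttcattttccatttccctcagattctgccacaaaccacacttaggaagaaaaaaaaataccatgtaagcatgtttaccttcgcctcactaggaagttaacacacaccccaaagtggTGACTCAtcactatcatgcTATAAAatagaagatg
The AP-1 match TGACTCA starts 35 bases before the start of transcription and the TATA box 16 bases before it. The level of Mmp13 was -2.77, -2.81 and -3.19 in GRflox and -2.90, -3.05 and -3.15 in cardioGRKO hearts of 1 month. The 2-month levels were -3.15 and -3.10 in the GRflox hearts with a usable spot (replicates 1 and 3) and -3.24, -3.00 and -3.71 in cardioGRKO hearts. Its groups overlapped at both ages, and the limma difference between genotypes was -0.11 (SE 0.19) at 1 month and -0.19 (SE 0.22) at 2 months.

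Between cardioGRKO and GRflox hearts none of the 43 genes passed the threshold at either age. Few genes of the array passed it, and Nr3c1 itself missed it at 1 month (limma adjusted p = 0.0513). The absence of calls therefore does not show that the 43 genes were unchanged. At 1 month limma called 0 of 43, where 6 of all 21886 genes were called (0.0274%), 0.0137% higher and 0.0137% lower. At an unadjusted p under 0.05 there were 2 genes lower in cardioGRKO hearts, Adamts1 and Adamtsl4, and 0 higher, where 3.07% of all genes were lower and 2.98% higher. For the older hearts limma again called 0 of 43, where 30 of 21887 genes were called (0.137%), 0.0777% higher and 0.0594% lower. At an unadjusted p under 0.05 there was 1 gene higher, Mmp23, and 1 lower, Adamts1, where 3.72% of all genes were higher and 3.93% lower. The difference between the effects at 2 months and at 1 month passed for 0 of the 43 genes, none of which had an unadjusted p under 0.05, and for 0% of all genes. The unadjusted p was under 0.05 for 0.795% of all genes in the upward and 0.553% in the downward direction. The median log2 fold change of the 43 was 0.01 at 1 month, where that of all genes was 0.04, and 0.12 at 2 months, where that of all genes was 0.03. The 2-month median of the 43 lay nearer that of all genes in fits that handled scan day or slide. With scan day as a block it was 0.02 (all genes -0.03), and with first-day arrays alone 0.03 (all genes -0.02). With slide as a fixed block it was -0.02 (all genes -0.03), and as a random block 0.09 (all genes 0.02). Within slide 3 it was 0.01 (all genes 0.0004).

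At 1 month 24 of the 43 genes lay above 0 and 19 below (44.2%), where 43% of all genes lay below. Under the other scalings 9 to 30 of the 43 lay above 0. The 9 came with median centring, which moved the median of all genes from 0.04 to -0.20 and that of the 43 from 0.01 to -0.23, so the position of the 43 among all genes was nearly the same. Without the 3 arrays with the highest shares above background 19 lay above 0 and 24 below. At 2 months 28 lay above 0 and 15 below (34.9%), where 45.3% of all genes lay below. Under the other scalings 25 to 29 lay above 0, and 31 did without those 3 arrays. With slide as a random block 28 again lay above 0, with slide as a fixed block 21, and within slide 3 22. Counting all 47 genes, whether tested or not, 27 lay above 0 at 1 month and 29 at 2 months.

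**Figure D2:**
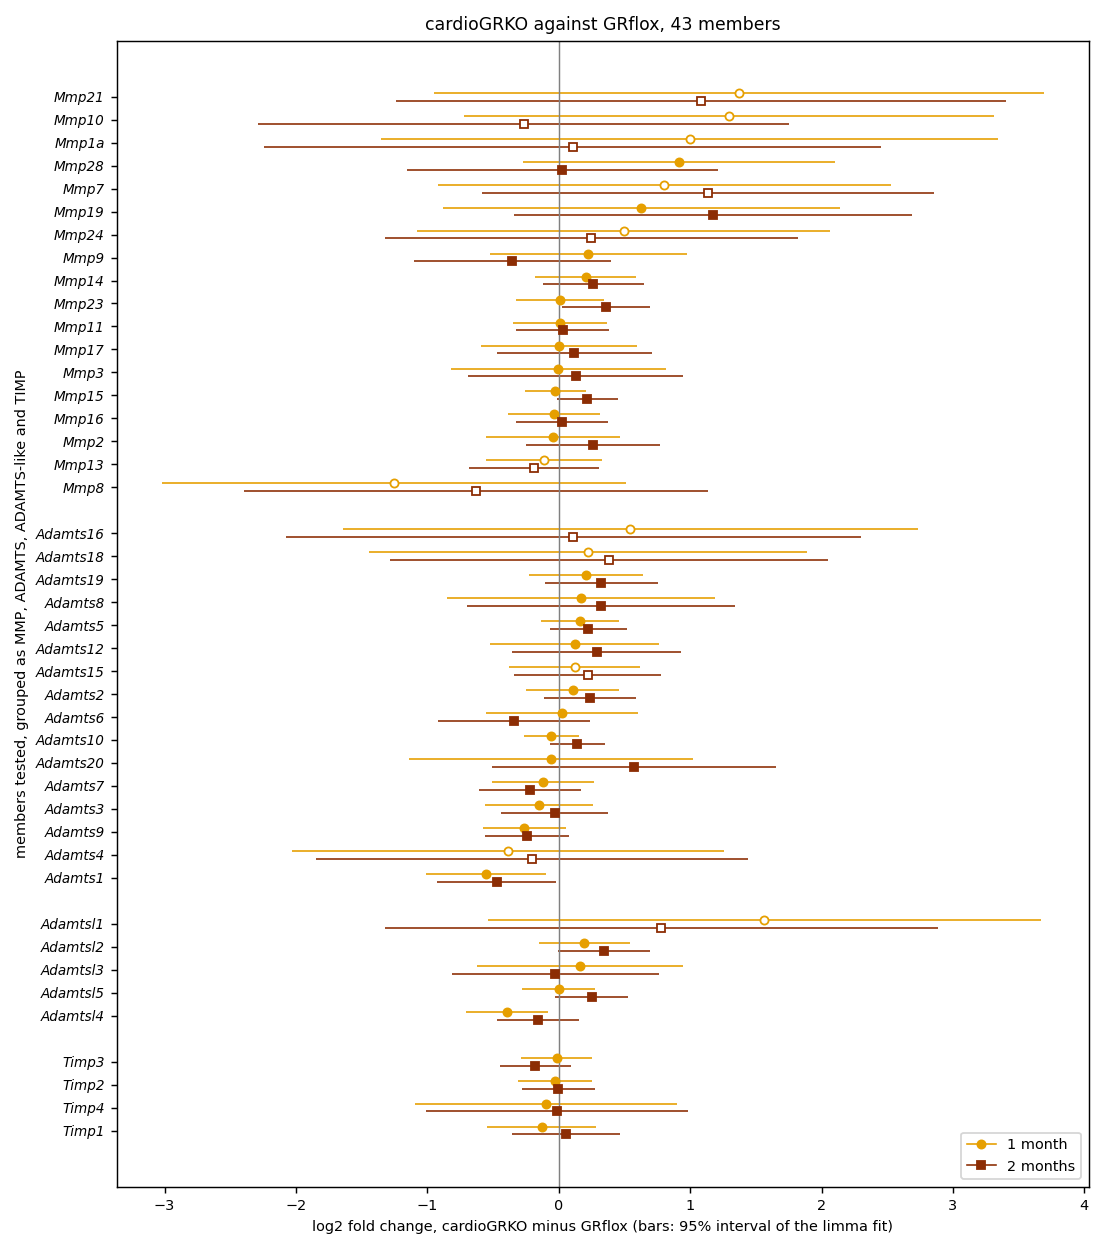
The difference between cardioGRKO and GRflox hearts for each of the 43 genes tested, at 1 month (circles) and 2 months (squares), as log2 fold change with the 95% interval of the limma fit (3 hearts a group). Filled symbols mark genes well above background on all 12 arrays and open symbols the others. No gene passed the adjusted threshold at either age, and intervals are widest for the dim genes. For Adamts1 both intervals lie below 0, from -1.01 to -0.10 and from -0.93 to -0.02.

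Adamts1, a protease that cuts versican and aggrecan, was lower in every cardioGRKO heart than in every GRflox heart of its age. At 1 month its level was 1.73, 1.58 and 1.44 in GRflox hearts and 1.05, 0.99 and 1.04 in cardioGRKO hearts. Its level at 2 months was 1.56, 0.83 and 0.75 in GRflox hearts and 0.72, 0.35 and 0.65 in cardioGRKO hearts. The gap between the genotypes was wide at 1 month and narrow at 2 months, where GRflox replicate 1 stood well above the other controls. The difference was -0.56 (SE 0.20, 1.47-fold lower) at 1 month and -0.47 (SE 0.20, 1.39-fold lower) at 2 months. Neither passed, with limma adjusted p-values of 0.765 and 0.625. The second Adamts1 probe gave -0.49 (SE 0.19) and -0.48 (SE 0.19). Without GRflox 2 months replicate 1 the 2-month difference was -0.22, as it was within slide 3 (1 GRflox and 2 cardioGRKO hearts). With slide as a block it was -0.34 (SE 0.25).

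The upstream region of Adamts1 is shown because this is the one gene of the family lower in all cardioGRKO hearts at both ages. Of all genes, 9.03% were lower without overlap at 1 month and 6.27% at 2 months, and the share lower at both ages was not counted. The region lies at chr16:85803114-85803363 of GRCm38.p6, on the minus strand, and matches to the GC box GGGCGG and to the TATA box are in capitals.
Adamts1: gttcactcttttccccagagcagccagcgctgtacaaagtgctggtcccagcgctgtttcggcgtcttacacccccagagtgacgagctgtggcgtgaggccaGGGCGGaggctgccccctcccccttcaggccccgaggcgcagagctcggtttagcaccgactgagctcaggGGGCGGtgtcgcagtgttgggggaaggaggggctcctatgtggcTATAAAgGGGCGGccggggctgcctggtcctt
It holds 3 GC boxes, 147, 76 and 25 bases before the start, and a TATA box 32 bases before it. The GC box, the letters bound by Sp1-type factors, was in 19 of the 35 promoters and in 32.7% of all promoters of this length, and the TATA box in 9 of the 35 and 12.4%. The glucocorticoid response element, searched on both strands as AGAACA and TGTNCT with 3 bases between them, was in none of the 35 and in 0.0365% of all, so this window holds no match to those letters. The Adamts1 probe lay at chr16:85790724-85790783 in the array's own mm7 coordinates.

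Endothelial markers moved the same way as Adamts1. All 10 of 10 lay below 0 at 1 month and 9 of 10 at 2 months, with medians of -0.18 at both ages and none called by limma. Their summed level was 81.1 to 87.6 in GRflox and 71.7 to 79.0 in cardioGRKO hearts of 1 month, and 69.7 to 71.9 against 58.4 to 68.1 at 2 months. Cardiomyocyte markers also lay below 0 at 1 month, 9 of 10 with a median of -0.23 and summed levels of 2996 to 3598 in GRflox and 2373 to 3055 in cardioGRKO hearts, and 5 of 10 did at 2 months (median -0.01). Adipocyte markers lay above 0, 8 of 8 at 1 month (median 1.36) and 7 of 8 at 2 months (median 0.67). Their summed level was 34.5 to 254.5 in GRflox and 178.2 to 284.2 in cardioGRKO hearts of 1 month, and none of these markers was called. Lymphocyte markers lay above 0 for 7 of 9 at 1 month and 9 of 9 at 2 months (medians 0.35 and 0.51). Fibroblast markers did so for 4 and 7 of 8, and epicardial and mesothelial markers for 5 and 0 of 6. Markers of the remaining lists lay on both sides of 0 at each age. No marker of the 11 lists was called between genotypes at either age. The part of these cells in the Adamts1 difference was not tested.

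Adamtsl4, an ADAMTS-like protein without protease activity that binds fibrillin, was also lower at 1 month. Its level was -0.03, -0.25 and 0.26 in GRflox and -0.56, -0.33 and -0.31 in cardioGRKO hearts, so the groups did not overlap, though the lowest GRflox heart lay close to the cardioGRKO hearts. The difference was -0.39 (SE 0.14, limma adjusted p = 0.756). In hearts of 2 months it was 0.12, 0.18 and 0.14 in GRflox and -0.03, 0.15 and -0.16 in cardioGRKO hearts. The groups overlapped there, with a difference of -0.16 (SE 0.14), and the change in effect between the ages was 0.23 (SE 0.20). Without GRflox 1 month replicate 3 the 1-month difference was -0.26.

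The one gene higher in every cardioGRKO heart at 1 month was Mmp28, the secreted protease epilysin. It was measured at -3.77, -4.01 and -3.99 in GRflox and at -2.26, -3.17 and -3.58 in cardioGRKO hearts. The highest value came from replicate 1, the cardioGRKO array of this age with the high share of probes above background, scanned on the second day. The difference was 0.92 (SE 0.53, limma adjusted p = 0.84), and without that array it was 0.54. At 2 months the groups overlapped, at -3.54, -2.40 and -3.59 against -3.75, -3.69 and -2.01, and the difference was 0.03 (SE 0.53). In all, 1 gene was higher and 2 lower without overlap at 1 month, where 9.02% of all genes were higher and 9.03% lower in this way.

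At 2 months 5 genes were higher without overlap and 1, Adamts1, was lower, where 6.15% of all genes were higher and 6.27% lower in this way. The 5 were Mmp23, Adamtsl2, Adamts19, Adamtsl5 and Adamts5. Mmp23, a membrane-anchored MMP, was measured at -0.08, -0.06 and 0.24 in GRflox and at 0.31, 0.57 and 0.30 in cardioGRKO hearts. The highest control lay just below the lowest knockout, and the difference was 0.36 (SE 0.15, limma adjusted p = 0.602). At 1 month Mmp23 had been 0.39, 0.53 and 0.06 against 0.44, 0.22 and 0.35, a difference of 0.01 (SE 0.15), and the change in effect between the ages was 0.35 (SE 0.21). Adamtsl2, which binds fibrillin and a latent TGFβ binding protein, was at -0.21, -0.27 and -0.28 in GRflox and at 0.19, 0.15 and -0.07 in cardioGRKO hearts of 2 months. Its difference was 0.34 (SE 0.15, adjusted p = 0.656). Adamtsl5, another fibrillin-binding protein without protease activity, was at 0.82, 0.92 and 0.90 against 0.97, 1.43 and 0.99, a difference of 0.25 (SE 0.12). Its other 2 probes gave 0.35 (SE 0.09) and -0.12 (SE 0.23). Adamts5, the main aggrecan-cutting ADAMTS, was at 1.01, 1.26 and 1.20 against 1.35, 1.50 and 1.31, a difference of 0.22 (SE 0.13). Adamts19 differed by 0.32 (SE 0.19), and by 0.08 (SE 0.27) on its second probe. With slide as a block the Mmp23 difference was 0.20 (SE 0.17), and it was also 0.20 within slide 3.

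The gelatinases and their activator did not differ between genotypes beyond their spread. Mmp2 (gelatinase A) differed by -0.05 at 1 month, with a 95% interval from -0.56 to 0.46, and by 0.26 at 2 months, with an interval from -0.25 to 0.77. Mmp9 (gelatinase B, abundant in neutrophils) differed by 0.22 (SE 0.33) and by -0.35 (SE 0.33). On its second probe it differed by 0.38 (SE 0.42) and by 0.23 (SE 0.42). Mmp14, the membrane-type MMP that activates pro-MMP2, differed by 0.21, with an interval from -0.18 to 0.59, and by 0.26, with an interval from -0.12 to 0.65. Mmp15, another membrane-type MMP, differed by -0.03 (SE 0.10) at 1 month and 0.22 (SE 0.10, limma adjusted p = 0.698) at 2 months. For Mmp14 the second probe lay on the other side of 0, at -0.06 (SE 0.17) and -0.14 (SE 0.17).

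The inhibitors were close between genotypes. Timp2, which blocks MMP2 and also takes part in its activation, differed by -0.03 (95% interval -0.31 to 0.25) at 1 month and by -0.003 (-0.28 to 0.28) at 2 months. Timp3, which is bound to the matrix and inhibits ADAMTS proteases as well as MMPs, differed by -0.02 (-0.28 to 0.25) and by -0.18 (-0.45 to 0.09). Timp1 differed by -0.13 (SE 0.18) and 0.05 (SE 0.18). For Timp4, an inhibitor found mainly in heart and a few other tissues, the hearts of a group were far apart, and its differences of -0.10 and -0.02 had an SE of 0.44.

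Some of these genes did differ with age. Between 1 month and 2 months 4 of the 43 genes fell in GRflox hearts and 0 rose, where 1.33% of all genes fell and 0.781% rose (462 of 21886 in all, 2.11%). The 4 were Adamts12, Adamts19, Adamts10 and Mmp14. At an unadjusted p under 0.05 there were 12 lower and 2 higher, where 7.12% of all genes were lower and 8.78% higher. In cardioGRKO hearts 0 of the 43 passed in limma, where 158 of 21887 genes did (0.722%), 0.338% higher and 0.384% lower. At an unadjusted p under 0.05 there were 11 lower and 2 higher, where 6.88% of all genes were lower and 8.26% higher. The age effect was not shown to differ between genotypes, since its difference is the same quantity as the change in knockout effect between ages and passed for no gene. The 2 age comparisons share no heart. The 1-month GRflox hearts were on slide 1 alone, so their age comparison cannot be told apart from that slide. The age comparison in cardioGRKO hearts has slide 4 in common, which held 1 heart of each age.

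**Figure D3:**
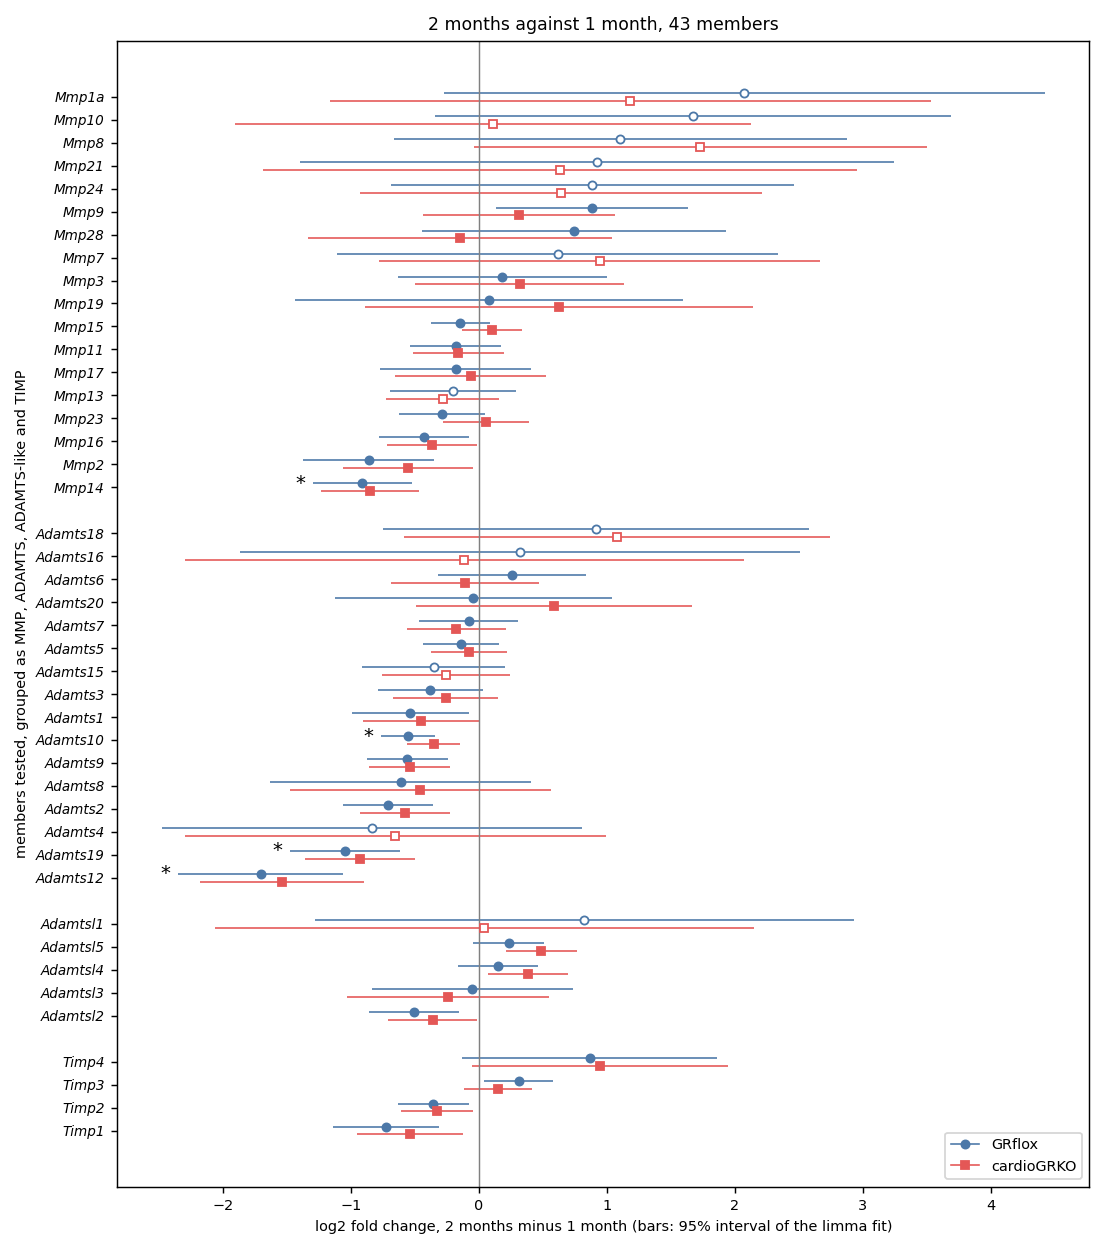
The difference between hearts of 2 months and of 1 month for each of the 43 genes tested, in GRflox (circles) and cardioGRKO (squares), as log2 fold change with the 95% interval of the limma fit (3 hearts a group). Filled symbols mark genes well above background on all 12 arrays, and an asterisk marks an adjusted p under 0.05. Most ADAMTS genes lie to the left of 0 in both genotypes, and the 4 asterisks are all in GRflox at values from -1.70 to -0.55.

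The largest fall was that of Adamts12, a protease that cuts cartilage oligomeric matrix protein. Its level was -1.90, -1.81 and -2.26 in GRflox and -1.56, -2.14 and -1.91 in cardioGRKO hearts of 1 month. The 2-month levels were -3.93, -3.54 and -3.61 in GRflox and -3.99, -3.44 and -2.80 in cardioGRKO hearts. Every 2-month heart was below every 1-month heart of either genotype. The difference was -1.70 (SE 0.29, 3.26-fold lower, limma adjusted p = 0.02) in GRflox and -1.54 (SE 0.29, 2.90-fold lower, adjusted p = 0.0501) in cardioGRKO hearts. With slide as a block the cardioGRKO difference was -1.50 (SE 0.27), and the pair on slide 4 gave -1.24. The genotypes differed by 0.12 (SE 0.29) at 1 month and 0.29 (SE 0.29) at 2 months. This fall rested on 1 of 3 Adamts12 probes, at chr15:11406886-11406945 (mm7). The other probes were well above background on 10 and 6 arrays and gave 0.27 (SE 0.72) and 1.58 (SE 0.72) in GRflox, and the mean of the 3 probes gave 0.050 in GRflox and -0.085 in cardioGRKO hearts. With normexp background correction the differences were smaller, at -1.10 (adjusted p = 0.00195) and -0.93 (adjusted p = 0.0118). Without 1 array of the 12 the GRflox call held in 8 of 12 fits, and the difference stayed between -1.84 and -1.59. Leaving out a cardioGRKO array cannot move this difference and changes only the estimate of the spread. Among the fits without a GRflox heart, the call held only without 1-month replicate 3 or 2-month replicate 2.

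The upstream region of Adamts12, the gene with the largest fall, is given at chr15:11064523-11064772 of GRCm38.p6, plus strand, and that of Mmp14, which also fell, at chr14:54431348-54431597, plus strand. Matches to the same 4 motifs are in capitals.
Adamts12: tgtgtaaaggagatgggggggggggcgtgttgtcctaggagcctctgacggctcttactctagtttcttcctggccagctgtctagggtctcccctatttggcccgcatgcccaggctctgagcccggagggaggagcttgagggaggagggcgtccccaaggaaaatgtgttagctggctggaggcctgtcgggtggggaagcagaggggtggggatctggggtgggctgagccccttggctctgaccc
Mmp14: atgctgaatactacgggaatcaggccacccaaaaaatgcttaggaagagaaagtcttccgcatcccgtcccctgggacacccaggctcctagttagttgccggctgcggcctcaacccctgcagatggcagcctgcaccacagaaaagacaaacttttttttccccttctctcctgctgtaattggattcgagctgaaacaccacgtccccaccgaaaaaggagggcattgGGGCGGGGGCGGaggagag
Adamts12 has no match to any of the 4 in this window. Mmp14 has 2 adjacent GC boxes, 19 and 13 bases before the start, and no TATA box or AP-1 match. The 2 windows thus share none of these 4 motifs, a statement about these letters alone.

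Mmp14 was measured at 2.97, 3.28 and 2.76 in GRflox and at 3.22, 3.27 and 3.14 in cardioGRKO hearts of 1 month. Its level at 2 months was 2.08, 1.80 and 2.40 in GRflox and 2.25, 2.46 and 2.36 in cardioGRKO hearts. The ages did not overlap in either genotype. The fall was -0.91 (SE 0.17, 1.88-fold, limma adjusted p = 0.0313) in GRflox, and the difference in cardioGRKO hearts was -0.85 (SE 0.17, adjusted p = 0.0626). The second Mmp14 probe gave -0.77 (SE 0.17) and -0.85 (SE 0.17). With slide as a block the cardioGRKO difference was -1.06 (SE 0.22), and the pair on slide 4 gave -0.85. The GRflox call held in 3 of the 12 fits without 1 array, with differences from -1.06 to -0.76. Among the fits without a GRflox heart, it held only without 1-month replicate 3 or 2-month replicate 3.

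Adamts19, a protease with few known substrates, was at -2.40, -2.08 and -2.93 in GRflox and at -2.31, -2.36 and -2.11 in cardioGRKO hearts of 1 month. Its 2-month levels were -3.60, -3.41 and -3.54 in GRflox and -3.06, -3.22 and -3.30 in cardioGRKO hearts. The ages did not overlap in either genotype. The difference was -1.04 (SE 0.19, adjusted p = 0.0288) in GRflox and -0.93 (SE 0.19, adjusted p = 0.0684) in cardioGRKO hearts. A second probe on all 12 arrays gave -0.82 (SE 0.27) and -0.96 (SE 0.27), and the GRflox call held in 5 of the 12 fits without 1 array. Among the fits without a GRflox heart, it held only without 1-month replicate 3.

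Adamts10, which acts on fibrillin microfibrils, was at -1.66, -1.80 and -1.77 in GRflox and at -1.66, -1.90 and -1.84 in cardioGRKO hearts of 1 month. At 2 months it was -2.23, -2.34 and -2.32 in GRflox and -2.11, -2.09 and -2.27 in cardioGRKO hearts. The ages did not overlap, and the hearts of each group were close together. The difference was -0.55 (SE 0.09, adjusted p = 0.0209) in GRflox and -0.35 (SE 0.09, adjusted p = 0.125) in cardioGRKO hearts. The other 2 Adamts10 probes did not show it, at -0.06 (SE 0.22) and 0.52 (SE 0.47) in GRflox. The call held in 8 of the 12 fits without 1 array. Among the fits without a GRflox heart, it held only without 1-month replicate 3 or 2-month replicate 1.

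**Figure D4:**
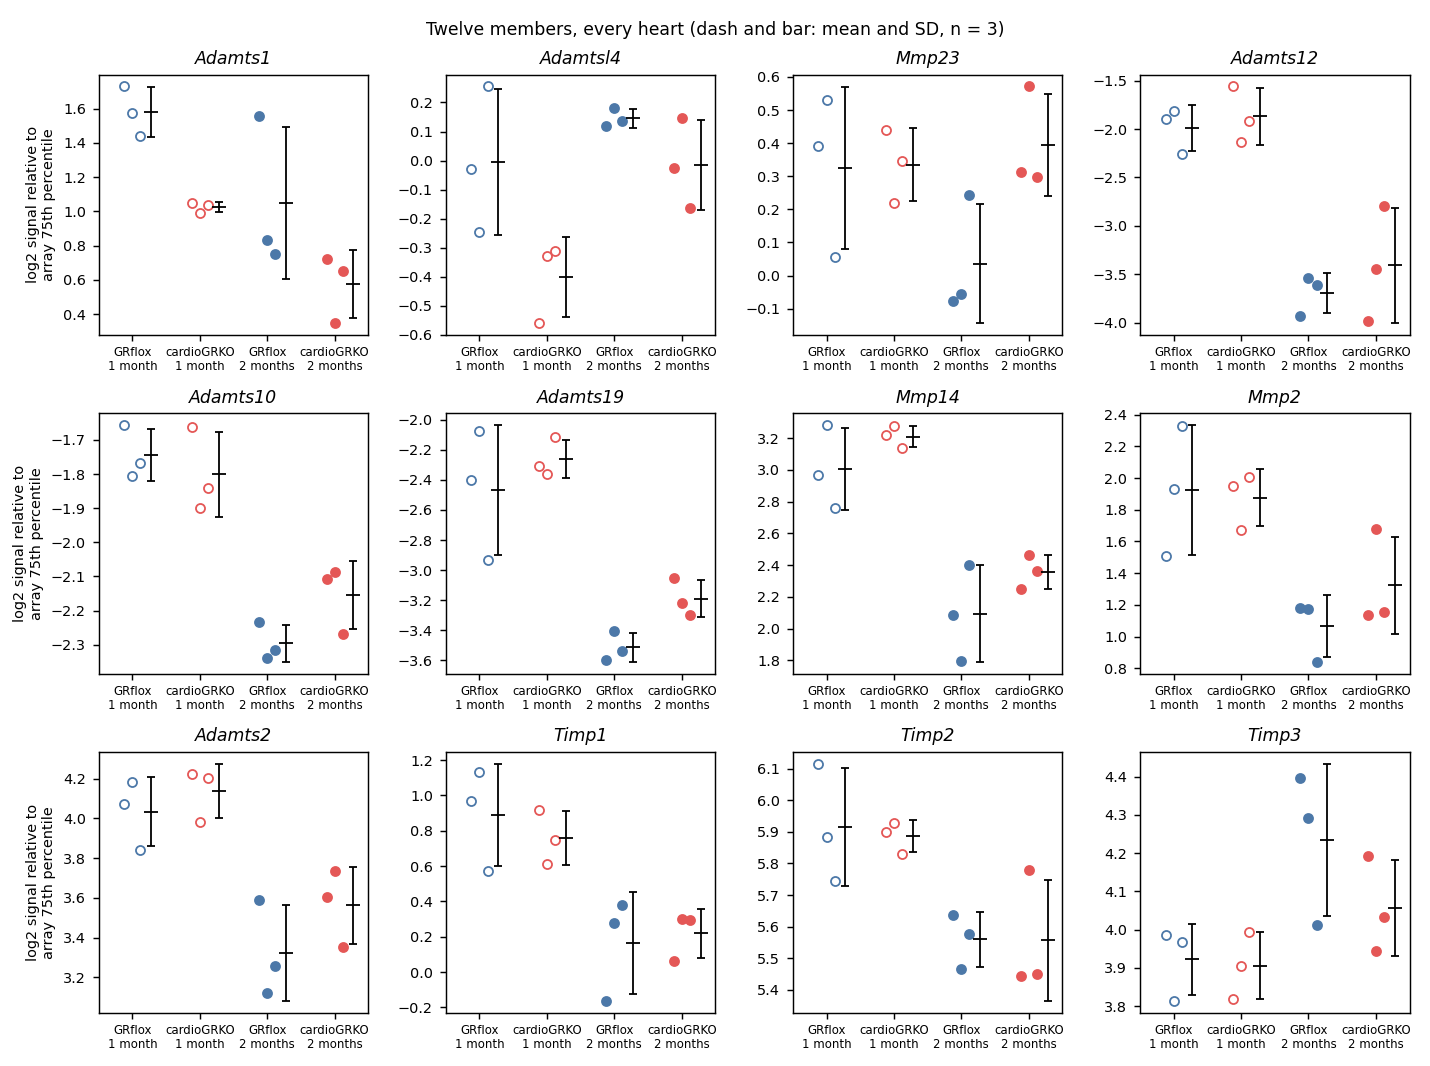
The level of 12 of the genes in every heart, as log2 signal relative to the array's 75th percentile (vertical axis, with its own range in each panel), by group (horizontal axis). Open circles are hearts of 1 month and filled circles of 2 months, blue is GRflox and red cardioGRKO, and the dash with its bar is the mean and SD of 3 hearts. Adamts1 is lower in red than in blue at both ages, and Adamts12, Adamts10, Adamts19, Mmp14 and Adamts2 are lower at 2 months than at 1 month in both genotypes.

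Of the 16 ADAMTS proteases tested, 13 lay below 0 with age in GRflox hearts, with a median of -0.46, and 14 in cardioGRKO hearts, with a median of -0.31. The median of all genes was 0.12 and 0.10, and 35.5% and 37.4% of all genes lay below 0. Under the 4 other scalings 13 to 15 of the 16 lay below 0 in GRflox and 14 in cardioGRKO hearts. Among those that did not pass, Adamts2, which removes the propeptide of fibrillar procollagens, was at 4.07, 4.18 and 3.84 in GRflox hearts of 1 month and at 3.59, 3.12 and 3.26 at 2 months. In cardioGRKO hearts it was at 4.22, 3.98 and 4.21 and then at 3.60, 3.73 and 3.35. The ages did not overlap, the differences were -0.71 (SE 0.16, limma adjusted p = 0.055) and -0.57 (SE 0.16, adjusted p = 0.134), and all 4 Adamts2 probes lay below 0 in both genotypes. Adamts9, a versican-cutting protease, differed by -0.56 (SE 0.14, adjusted p = 0.0868) in GRflox and by -0.54 (SE 0.14, adjusted p = 0.121) in cardioGRKO hearts. Adamts1 differed by -0.54 (SE 0.20) and -0.45 (SE 0.20), and without GRflox 2 months replicate 1 its GRflox difference was -0.79 (adjusted p = 0.0407), while its second probe gave -0.28 (SE 0.19) in each genotype. Adamts5 was nearer 0, at -0.14 (SE 0.13) and -0.08 (SE 0.13).

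The MMPs did not share a direction with age: 10 of 18 lay above 0 in GRflox hearts and 11 in cardioGRKO hearts, and with median centring 8 and 10 did. Those above 0 in both genotypes included the dim genes Mmp1a, Mmp7, Mmp8, Mmp10, Mmp21 and Mmp24, well above background on 4 to 10 arrays. Of the MMPs on all 12 arrays, Mmp2, Mmp11, Mmp14, Mmp15, Mmp16, Mmp17 and Mmp23 lay below 0 in GRflox hearts. Mmp3, Mmp9, Mmp19 and Mmp28 lay above. In cardioGRKO hearts Mmp15 and Mmp23 lay above 0 and Mmp28 below. Mmp2 was at 1.51, 1.93 and 2.33 in GRflox hearts of 1 month and at 1.18, 1.17 and 0.84 at 2 months, and at 1.95, 1.68 and 2.01 and then 1.14, 1.68 and 1.16 in cardioGRKO hearts. The ages did not overlap in GRflox and did in cardioGRKO hearts, with differences of -0.86 (SE 0.23, limma adjusted p = 0.0987) and -0.55 (SE 0.23, adjusted p = 0.293). Mmp9 was at -3.87, -4.01 and -4.72 and then at -3.85, -2.84 and -3.25 in GRflox hearts, a difference of 0.89 (SE 0.33, adjusted p = 0.228), and the highest value came from the array with 81.9% of probes above background. With normexp background correction that difference was 0.12. The neutrophil markers, whose cells hold MMP8 and MMP9, had a summed level between 1.8 and 19.7 over the 12 hearts, widest in GRflox hearts of 2 months, and their part in the Mmp9 and Mmp8 values was not tested. For dim genes that were not well above background in a whole group only a bound can be given, taken against the lowest signal among probes well above background. With the 75th percentile scaling, Mmp10 was at least 2.63-fold higher at 2 months than at 1 month in GRflox hearts (measured means -4.71 and -6.38, limma adjusted p = 0.397). Its fitted difference of 1.67 was 1.26 without GRflox 2 months replicate 2 and 0.16 with normexp background correction, so the bound does not hold under that correction. For Mmp1a the bound was 1.56-fold (adjusted p = 0.368), and it too failed with normexp, where the difference was 0.08. The second Mmp1a probe gave -0.02 (SE 0.98). Neither gene passed.

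The TIMPs were split. Timp1 was at 0.97, 1.13 and 0.57 in GRflox hearts of 1 month and at -0.16, 0.28 and 0.38 at 2 months, and in cardioGRKO hearts at 0.92, 0.61 and 0.75 and then at 0.06, 0.30 and 0.29. Its ages did not overlap, with differences of -0.73 (SE 0.18, adjusted p = 0.0871) and -0.54 (SE 0.18, adjusted p = 0.203), and all 3 of its probes lay below 0. Timp2 was at 6.12, 5.88 and 5.75 and then at 5.64, 5.47 and 5.58 in GRflox hearts, and at 5.90, 5.93 and 5.83 and then at 5.44, 5.78 and 5.45 in cardioGRKO hearts. It too did not overlap between ages, with differences of -0.35 (SE 0.12) and -0.33 (SE 0.12). Timp3 went the other way in GRflox hearts, from 3.99, 3.81 and 3.97 to 4.40, 4.29 and 4.01, a difference of 0.31 (SE 0.12, adjusted p = 0.238), and overlapped in cardioGRKO hearts, at 3.82, 3.90 and 3.99 and then 4.19, 3.94 and 4.03. Timp4 differed by 0.87 (SE 0.44) and 0.95 (SE 0.44). None of the 4 passed in either genotype, and these signs held under all 4 other scalings.

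By group ranges, 11 genes were lower and 6 higher at 2 months without overlap in GRflox hearts, where 8.58% of all genes were lower and 14.4% higher. In cardioGRKO hearts 12 were lower and 3 higher, where 10.9% were lower and 14.4% higher.

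Some of the genes that code for substrates of these enzymes fell with age. Of 24 measured proteoglycan and glycoprotein genes (of 25 listed), 8 fell in GRflox hearts and 0 rose, with a median of -0.37, and 3 fell in cardioGRKO hearts, with a median of -0.42, against medians of 0.12 and 0.10 over all genes, of which 1.33% and 0.384% fell. The 3 that fell in both genotypes were Sparc, a collagen-binding glycoprotein, at -1.32 (SE 0.14) and -1.17 (SE 0.14), Fn1 (fibronectin) at -1.05 (SE 0.18) and -1.22 (SE 0.18), and Nid2, a basement membrane protein, at -0.82 (SE 0.09) and -0.53 (SE 0.09). Vcan, the versican that several ADAMTS enzymes cut, differed by -0.73 (SE 0.19, limma adjusted p = 0.104) and -0.82 (SE 0.19, adjusted p = 0.0987). Among 14 measured ADAM and astacin proteases and procollagen enhancers, 1 fell in GRflox hearts, Pcolce, which promotes removal of the carboxyl propeptide of procollagen, at -0.58 (SE 0.10, adjusted p = 0.026). Of 17 measured cytokines and transcription factors known to induce MMPs, 1 fell in each genotype, Ets1, at -0.44 (SE 0.09) and -0.55 (SE 0.09). Of 16 genes for activation, inhibition and clearance of the enzymes, 0 passed in limma in any comparison.

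No gene of these 4 lists passed between genotypes at either age. Those with the smaller unadjusted p-values included Pcolce2, a relative of Pcolce, at 0.49 (SE 0.16) and 0.64 (SE 0.16, limma adjusted p = 0.251 at 2 months), Ets1, at -0.30 (SE 0.09) and -0.41 (SE 0.09, adjusted p = 0.158), Stat3, at -0.32 (SE 0.08) and -0.25 (SE 0.08), and Furin, a convertase that activates membrane-type MMPs, at -0.35 (SE 0.14) and -0.37 (SE 0.14).

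Fibroblasts make much of the cardiac matrix, and their markers moved with the same ages. Of 8 fibroblast markers, all well above background on every array, 7 lay below 0 with age in each genotype, and 4 fell in GRflox and 3 in cardioGRKO hearts, where 1.33% and 0.384% of all genes fell. The collagen genes Col1a1, Col1a2 and Col3a1 fell in both. The summed level of the 8 was 309.8 to 369.8 in GRflox and 364.5 to 380.6 in cardioGRKO hearts of 1 month, and 239.6 to 265.2 and 249.7 to 307.7 at 2 months. The groups of the 2 ages did not overlap in either genotype. Markers of several other cell types, though not of all, were lower at 2 months as well. All 10 endothelial and all 9 macrophage genes lay below 0 in both genotypes, and of these Cd68, a macrophage gene, fell in GRflox hearts. Of 8 smooth muscle and pericyte markers 7 lay below 0 in each genotype (medians -0.41 and -0.27), and Pdgfrb fell in GRflox hearts. All 6 epicardial and mesothelial markers lay below 0 (medians -0.39 and -0.73), as did 7 of 8 adipocyte markers (medians -0.68 and -1.35), with none called. Of 6 measured cartilage markers, 4 lay below 0 in each genotype. Cardiomyocyte markers lay above 0 for 7 of 10 in GRflox and 8 of 10 in cardioGRKO hearts (medians 0.03 and 0.23). Neutrophil markers did so for 7 and 8 of 9 measured (medians 0.65 and 0.82), and lymphocyte markers for 5 and 8 of 9. Lung epithelium markers were split, with 3 and 4 of 7 above 0. The part of these cells in the falls of Adamts12, Adamts19, Adamts10 and Mmp14 was not tested.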

How the data were processed

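Whole-heart RNA (500 ng) had been labelled with Cy3 and hybridised to single-colour Agilent arrays read with Feature Extraction 9.5, per the file headers and the labels' protocols. The deposited intensity is the background-subtracted processed signal of each spot on a linear scale, and the deposited value table held the same values. Controls and spots marked non-uniform were left out (3 to 310 an array), spots of a probe were averaged, log2 was taken and each array's 75th percentile subtracted. A gene was represented by its brightest probe and tested where it exceeded background clearly (the scanner's own call) on 3 or more of the 12 arrays (21887 genes). Limma fitted the 4 groups together, with Benjamini-Hochberg adjustment over all genes, and was tested on simulated data. Slides and scan days came from the headers. Members, gene lists and naming rules were chosen with earlier results of these data known: members named are those past the threshold, the largest differences without overlap, the TIMPs, the gelatinases and Mmp14. Members named beyond that rule (Adamts9, Mmp8 and Mmp13, with Vcan, Sparc, Fn1, Nid2, Pcolce, Cd68 and Pdgfrb outside the family) were chosen after their values were seen. Further members are named only for their detection, promoter or direction. Hearts came from separate mice; the number of arrays limits precision. Alternatives covered scaling, filters, probe choice, slide, scan day, replicate number, variance model and leaving out arrays.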

Additional observations from a re-analysis of the deposited data

How the results depend on the processing

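The count of genes that fell with age in GRflox hearts, 4, was 1 with median centring, 2 with quantile normalization, 2 with the mean of a gene's probes, 2 with slide as a random block, 2 without the second scan day, 1 without the 3 arrays with the highest shares above background, 8 with trended and robust variances, 6 with normexp background correction, 5 with the percentile over detected probes, 5 with genes above background on all 12 arrays, 3 with no filter, 4 with scan day as a block, 0 with only the 6 arrays compared, and 0 to 6 without 1 array. It was 0 without GRflox 1 month replicate 1 or without replicate 2, 1 without GRflox 2 months replicate 2 or without replicate 3, and 2 without cardioGRKO 1 month replicate 1 or without cardioGRKO 2 months replicate 2. In cardioGRKO hearts the count, 0, was 1 with quantile normalization, 2 with normexp background correction, 1 with the percentile over detected probes, 3 with genes above background on all 12 arrays, 1 with scan day as a block, 2 with trended variances, and 0 to 1 without 1 array. All these genes were lower at 2 months. With the mean of its probes, Adamts12 in GRflox hearts turned from -1.70 to 0.050. The counts between genotypes and for the difference between ages were 0 under every alternative run. Whether replicate numbers pair the hearts could not be settled from the arrays, and the main fit treated the hearts as unpaired. Deviations of same-numbered hearts correlated at 0.19, 0.28 and -0.04 at 1 month and at 0.49, -0.06 and 0.14 at 2 months. With the replicate block 1 gene was called with age in GRflox and 0 in the other comparisons. Slide could be fitted as a fixed block only at 2 months between genotypes and with age in cardioGRKO hearts. Signal near background limits most of the 12 genes tested on 3 to 11 arrays. Adamts15 and Mmp13 are among the 12 only because 1 spot of each was left out as non-uniform.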
